A study of Mus musculus with 24 samples.

Results

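The genes described here are 10 that store or carry fat in hepatocytes and adipocytes or regulate that storage: Pparg, Cd36, Fabp4, Mogat1, Plin2, Plin4, Plin5, Cidea, Cideb and Cidec. They were taken by gene symbol from a table of 54432 genes, where each symbol occurred in a single row, and all 10 were found. The table came from RNA sequencing of whole liver from 24 male C57BL/6 mice in 4 groups of 6, with 3 mice per cohort and group in 2 cohorts. All mice, wild type included, were given an adeno-associated virus carrying Cre recombinase, the enzyme that cuts out floxed DNA, by intraperitoneal injection at 20 to 21 weeks of age. Chow-fed mice were fasted for 4 h before their livers were collected, 4 weeks after injection. The Trib1-KO group carried floxed Trib1, the Cebpa-KO group floxed Cebpa, the DKO group both floxed genes, and the WT group neither. The promoter that drives Cre in the virus is not given in the labels, and floxed genes in uninfected cells would still be read in whole tissue.

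A lipid droplet is a core of triglyceride under a single layer of phospholipid, and perilipins coat that layer and control the access of lipases. CIDE proteins sit where droplets touch and move lipid from a smaller droplet into a larger one. PPARγ is the nuclear receptor that drives genes of fat storage in fat cells. It is low in healthy liver, and its rise in hepatocytes of fatty liver comes with genes otherwise typical of adipocytes, Cidec (also called Fsp27) and Mogat1 among them.

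Values are estimated read counts per gene, normalized between libraries by the authors and called normalized counts below. Libraries held 23400000 to 27200000 normalized counts, from an estimated 18600000 to 34200000 reads. A library is named by its column, as in C1 or H3. The letters divide each group, as C and D in the Trib1-KO group, and no label explains them. No fit used the letters as a term. The labels describe separate mice, so tests measure the spread between mice, but they tie no column to a cohort and no value within a cohort could be given. Differences are between group means of log2(value + 1), a scale that understates changes of low genes. The value after ± is the standard error. They come from a limma fit over all 19810 genes that reached a mean of 1, a filter that all 10 genes passed. A call is a limma p under 0.05 after Benjamini-Hochberg adjustment over those genes. The hepatocyte genes Alb and Apoa1 were among the highest in all groups, as the tissue label says. Of 10 hepatocyte markers 7 were called lower and none higher in the livers labelled Trib1-KO, 4 lower and 2 higher in Cebpa-KO livers (2 and 1 with quantile normalization), and 2 lower and 1 higher in livers labelled DKO, each against WT. Of all genes, 10.9% were called lower and 11.8% higher in the livers labelled Trib1-KO. The same shares were 5.22% and 4.6% in Cebpa-KO livers and 3.25% and 2.84% in livers labelled DKO. Alb fell by 2.02 in the livers labelled Trib1-KO (limma adjusted p = 2.1e-10), where Hnf4a (-0.02 ± 0.10, limma adjusted p = 0.93) and Cps1 (-0.05 ± 0.19, limma adjusted p = 0.89) were not called. The summed values of the 10, in which Alb weighs most, were 867167 to 986825 in the livers labelled Trib1-KO, 2491936 to 3309716 in Cebpa-KO, 2453856 to 2906940 in those labelled DKO and 1888162 to 2711343 in WT livers. Mean Alb alone was 356731 in the livers labelled Trib1-KO, 2295000 in Cebpa-KO, 1915000 in those labelled DKO and 1451667 in WT livers, while Cps1 fell by 0.92 in Cebpa-KO livers (limma adjusted p = 0.0015). Major urinary protein (Mup) genes took 24.5% of all values on average in the livers labelled Trib1-KO, 1.79% in Cebpa-KO, 2.83% in those labelled DKO and 7.16% in WT livers.

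Cebpa encodes the transcription factor C/EBPα and followed its labels, at 82.2 ± 17.5 normalized counts in Cebpa-KO livers and 82.4 ± 18.1 in livers labelled DKO, against 6019 ± 1057 in WT (SD, n = 6 each). Trib1, which encodes the pseudokinase that brings C/EBPα to the COP1 ubiquitin ligase, went against its label in the livers labelled Trib1-KO. Its mean was 4237 ± 358 in livers labelled Trib1-KO, 333 ± 158 in Cebpa-KO livers and 732 ± 259 in livers labelled DKO, against 1224 ± 204 in WT. In livers labelled DKO Trib1 was lower than in WT, by 0.83 (limma adjusted p = 0.041), but higher than in Cebpa-KO livers. The value per gene cannot show whether the floxed part was lost, so these groups are called the libraries or livers labelled Trib1-KO and DKO. Cebpa also differed in the livers labelled Trib1-KO, where it averaged 2668 ± 359.

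In the livers labelled Trib1-KO, 6 of the 10 genes rose and Cideb fell against WT, where 22.7% of all genes were called. Cidec rose most, about 11-fold by medians, and Cd36, Fabp4, Mogat1, Pparg and Plin2 rose with it. Plin4, Plin5 and Cidea were not called. The median difference of the 10 genes, which were chosen with earlier results of these data known, was 1.45, against 0.008 for all genes tested. Called higher were 11.8% of all genes and called lower 10.9%, so that 51.8% of calls were higher, a share that became 84.6% when libraries were scaled to their totals without the Mup genes. In Cebpa-KO livers no gene of the 10 rose and Plin2 and Plin5 fell, where 4.6% of all genes rose and 5.22% fell. In livers labelled DKO none rose and Plin5 fell, where 2.84% of all genes rose and 3.25% fell.

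**Figure D1:**
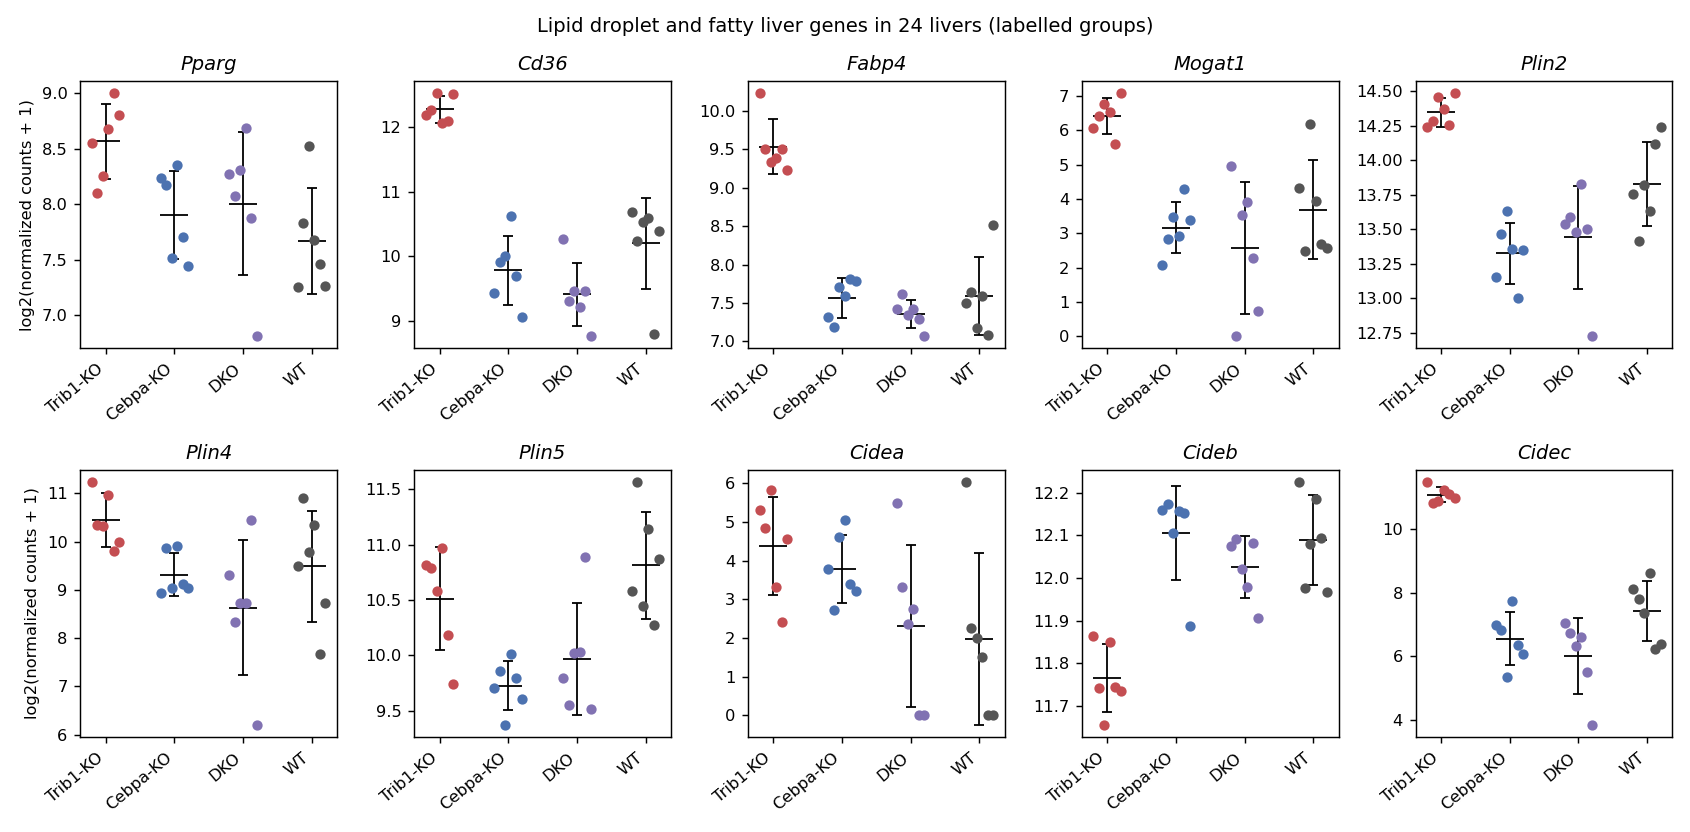
Values of the 10 genes in each of 24 livers, as log2(normalized counts + 1), by labelled group. Points are livers, the horizontal line is the mean and bars span the SD (n = 6). For Cidec, Cd36, Fabp4 and Plin2 all 6 livers labelled Trib1-KO lie above every WT liver, and for Cideb all 6 lie below.

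Pparg encodes the receptor itself (ENSMUSG00000000440.12, GRCm38 chromosome 6, 115360951 to 115490399, + strand). The libraries labelled Trib1-KO held 274, 391 and 511 normalized counts as lowest, median and highest value. Cebpa-KO libraries held 173, 248 and 326, and libraries labelled DKO 111, 288 and 412. WT libraries held 151, 189 and 366. The top WT liver, A3, stood above 2 of the 6 livers labelled Trib1-KO, so the groups overlapped, while the other 5 WT livers lay below all of them. The rise against WT was 0.90 ± 0.26 (limma adjusted p = 0.012). The difference from WT was 0.24 ± 0.26 in Cebpa-KO livers (limma adjusted p = 0.66) and 0.34 ± 0.26 in livers labelled DKO (limma adjusted p = 0.55). Between the livers labelled DKO and those labelled Trib1-KO, Pparg differed by -0.56 ± 0.26, which was not called (limma adjusted p = 0.11). It was called with the scaling without the Mup genes (-0.85, limma adjusted p = 0.013, where the median of all genes was -0.294) and without library H1, labelled DKO (limma adjusted p = 0.046), and stood at -0.32 without library H3 of that group.

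The labels name no binding data, and promoters are shown because the design removes C/EBPα and some of the genes are known targets of PPARγ. RefSeq promoters of GRCm38.p6, each 250 bases before and 50 after a start, were searched for 8 of the 10 genes. They made up 12 entries in all, and no promoter of Cidea or Fabp4 was searched. Searched on both strands were TTNNGCAA, a C/EBP core with its palindromic form TTGCGCAA inside it, and AGGTCA, the hexamer of nuclear receptors, with the PPAR response element, which holds 2 copies of it 1 base apart. Of 32851 promoters of the same length, 10.8% held TTNNGCAA, 0.183% TTGCGCAA, 16.3% AGGTCA and 0.0396% the PPAR response element. Of the 12 entries 2 held TTNNGCAA, 1 each of Pparg and Cidec, and 6 held AGGTCA, 2 each of Pparg and Plin5 and 1 each of Plin2 and Cd36. None held TTGCGCAA or the PPAR response element in this exact form in this window. Strings this rare would hardly be met in 12 entries, so their absence says little. No looser form of the PPAR response element was searched. Pparg has 3 entries, and the third start, 60.9 kb from the first, held the C/EBP core at 2 places, beginning at base -215 and base -16 from the start (the start is +1). The first and second starts each held a single AGGTCA, at -28 and -9. The third promoter (chr6:115421816-115422115, + strand) is printed 5′ to 3′ with both C/EBP core matches in capitals.
Pparg start 3: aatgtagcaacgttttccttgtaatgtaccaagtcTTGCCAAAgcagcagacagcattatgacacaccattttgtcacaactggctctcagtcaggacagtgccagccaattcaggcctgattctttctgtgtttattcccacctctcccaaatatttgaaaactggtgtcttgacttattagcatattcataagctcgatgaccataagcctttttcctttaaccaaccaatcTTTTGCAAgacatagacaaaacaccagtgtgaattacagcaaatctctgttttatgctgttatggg

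A match is a run of letters and no measured binding, and the value per gene does not separate the starts.

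Cd36 is a surface receptor that takes up long-chain fatty acids, and Fabp4 is a fatty acid binding protein of adipocytes and macrophages. Cd36 (ENSMUSG00000002944.15, GRCm38 chromosome 5, 17781690 to 17888801, - strand) was at a lowest, median and highest value of 4301, 4788 and 5902 normalized counts in the libraries labelled Trib1-KO. The same values were 536, 894 and 1582 in Cebpa-KO libraries and 434, 668 and 1229 in libraries labelled DKO. They were 446, 1409 and 1652 in WT libraries. All 6 livers labelled Trib1-KO thus lay above the other 18. Cd36 rose by 2.07 ± 0.27 in the livers labelled Trib1-KO against WT (limma adjusted p = 3e-06), with means of 5001 ± 719 in the livers labelled Trib1-KO and 1277 ± 436 in WT (SD, n = 6 each).
Cebpa-KO livers differed from WT by -0.42 ± 0.27 (limma adjusted p = 0.41) and livers labelled DKO by -0.79 ± 0.27 (limma adjusted p = 0.093). WT liver B2, at 446, stood apart from the other 5 WT livers at 1209 to 1652. Without it the difference of livers labelled DKO from WT was -1.07 and was called (limma adjusted p = 0.0036), and that of Cebpa-KO livers was -0.70 and just called (limma adjusted p = 0.05 after rounding). Without library G1, labelled DKO, the difference of that group was called as well (-0.96, limma adjusted p = 0.037). The Cd36 promoter of the table (chr5:17835847-17836146, - strand) held a single AGGTCA on the reverse strand at base -228, in capitals below as TGACCT.
Cd36: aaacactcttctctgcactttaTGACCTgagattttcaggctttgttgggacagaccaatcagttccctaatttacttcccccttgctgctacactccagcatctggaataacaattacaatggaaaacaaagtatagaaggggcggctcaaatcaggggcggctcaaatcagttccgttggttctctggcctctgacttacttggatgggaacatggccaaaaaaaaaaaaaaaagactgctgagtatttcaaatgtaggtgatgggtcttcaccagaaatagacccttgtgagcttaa

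Fabp4 (ENSMUSG00000062515.3, GRCm38 chromosome 3, 10204088 to 10208576, - strand) kept the livers labelled Trib1-KO apart from all others. Its lowest, median and highest values were 600, 696 and 1199 normalized counts in the libraries labelled Trib1-KO. In Cebpa-KO libraries they were 145, 200 and 224, in libraries labelled DKO 133, 166 and 195, and in WT libraries 135, 186 and 365. No liver of another group reached 600. Library C1 was the top one at 1199, and the other 5 livers of its group lay at 600 to 727. The rise against WT was 1.95 ± 0.19 (limma adjusted p = 2.8e-08), whereas Cebpa-KO livers differed from WT by -0.02 ± 0.19 (limma adjusted p = 0.97) and livers labelled DKO by -0.23 ± 0.19 (limma adjusted p = 0.6).

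Markers of other cell types moved with these rises. Of all genes, 11.8% were called higher and 10.9% lower in the livers labelled Trib1-KO against WT. Of 15 markers of Kupffer cells and macrophages, cells that also express Fabp4 and Cd36, 13 rose and none fell in the livers labelled Trib1-KO. Their sum was 19472 to 22498 there, 12954 to 17040 in Cebpa-KO livers, 11459 to 17892 in livers labelled DKO and 10019 to 18049 in WT livers. Smallest by limma adjusted p, which does not rank them by size of the rise, were Gpnmb, Cd68 and Cd5l. Gpnmb, a glycoprotein of lipid-laden macrophages, stood at 5.71 ± 0.64 (limma adjusted p = 2.3e-07). Cd68, a lysosomal protein, stood at 1.37 ± 0.20 (limma adjusted p = 9.6e-06), and Cd5l, a Kupffer cell product, at 1.00 ± 0.15 (limma adjusted p = 1.1e-05). The part of macrophages, or of any other cell type, in the rises of Fabp4 and Cd36 was not tested. In whole liver, fewer cells of a type and less RNA per cell cannot be told apart.
Adipocyte markers stood at low levels. Adipoq, which encodes adiponectin, was at 0 to 3.42 normalized counts in the libraries labelled Trib1-KO, at 0 in all Cebpa-KO libraries and all labelled DKO and at 0 to 2.16 in WT. Lep, which encodes leptin, was at 0 in all 24, and Plin1, the perilipin of fat cells, was at 0 in 5 of 6 libraries labelled Trib1-KO and in 5 of 6 WT libraries. Summed over 9 adipocyte genes the values were 572 to 927 in the livers labelled Trib1-KO, 568 to 700 in Cebpa-KO, 601 to 853 in those labelled DKO and 587 to 734 in WT livers. Most of that sum was Lipe and Adrb3. Of the 5 adipocyte genes tested, Retn rose by 2.67 ± 0.33 (limma adjusted p = 1.3e-06) and Adrb3 by 1.29 ± 0.35 (limma adjusted p = 0.0076), and Lipe fell by 0.95 (limma adjusted p = 4.4e-07). Of 12 endothelial genes tested 3 rose and 1 fell (7 and none without the Mup genes), with sums of 11156 to 12028 in the livers labelled Trib1-KO and 10501 to 12006 in WT livers. Of 12 stellate cell genes 3 rose (6 without the Mup genes), with sums of 12484 to 15005 in the livers labelled Trib1-KO and 10685 to 15262 in WT livers. The single muscle gene tested, Mylpf, was not called (0.63 ± 0.55, limma adjusted p = 0.47), and the sums of 7 muscle genes were 3.24 to 44.4 over all libraries.

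Mogat1 makes diacylglycerol from monoacylglycerol, a route to triglyceride that is minor in healthy liver. Mogat1 (ENSMUSG00000012187.13, GRCm38 chromosome 1, 78510991 to 78538173, + strand) was low, with a lowest, median and highest value of 47.2, 87.6 and 134 normalized counts in the libraries labelled Trib1-KO. Cebpa-KO libraries held 3.18, 8.04 and 18.6, and libraries labelled DKO held 0, 7.16 and 30.1, with 1 library at 0. WT libraries held 4.54, 9.87 and 70.9. A single WT library, A3, reached into the range of the livers labelled Trib1-KO, and it was the same library that was highest in Pparg. The rise against WT was 2.71 ± 0.69 (limma adjusted p = 0.0049). Cebpa-KO livers differed from WT by -0.53 ± 0.69 (limma adjusted p = 0.73) and livers labelled DKO by -1.12 ± 0.69 (limma adjusted p = 0.43), neither of which was called. Without A3 these values were -0.03 in Cebpa-KO livers and -0.63 in livers labelled DKO, and without library G2, labelled DKO, the second was -0.61.

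Perilipins coat the droplet. Plin2 is the perilipin of hepatocytes and tracks fat content, Plin5 ties droplets to mitochondria in tissues that burn fat, and Plin4 is a perilipin of adipocytes. Per kb of transcript, Plin2 (ENSMUSG00000028494.12, GRCm38 chromosome 4, 86648386 to 86670060, - strand) was the highest of the 10 genes in each group, with mean levels per kb of 11065 in the livers labelled Trib1-KO, 5490 in Cebpa-KO, 6048 in those labelled DKO and 7856 in WT livers. In normalized counts its lowest, median and highest values were 19342, 20549 and 22927 in the libraries labelled Trib1-KO. The corresponding values were 8200, 10453 and 12678 in Cebpa-KO, 6768, 11749 and 14520 in those labelled DKO and 10939, 14146 and 19331 in WT libraries. The top WT liver, B3, lay just under the lowest liver labelled Trib1-KO, so the groups did not overlap but nearly touched. Plin2 rose by 0.52 ± 0.15 in the livers labelled Trib1-KO (limma adjusted p = 0.011) and fell by 0.50 in Cebpa-KO livers (SE 0.15, limma adjusted p = 0.028). The fall in Cebpa-KO livers was not called under quantile normalization (limma adjusted p = 0.054) or when Cebpa-KO library E1 or F2 or WT library B2 or B3 was left out (limma adjusted p up to 0.077). Livers labelled DKO differed from WT by -0.39 ± 0.15 (limma adjusted p = 0.14).

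Plin5 (ENSMUSG00000011305.11, GRCm38 chromosome 17, 56111601 to 56117596, - strand) had a different order, with WT livers highest by median. The libraries labelled Trib1-KO held 855, 1649 and 1998 normalized counts as lowest, median and highest value. Cebpa-KO libraries held 662, 862 and 1033, libraries labelled DKO 733, 965 and 1897 and WT libraries 1238, 1701 and 3029. All 6 Cebpa-KO livers lay below all 6 WT livers. Plin5 fell by 1.09 in Cebpa-KO livers (SE 0.23, limma adjusted p = 0.0024), a call that all alternatives tried kept, and by 0.84 in livers labelled DKO (SE 0.23, limma adjusted p = 0.027). The fall in livers labelled DKO lay between -1.03 and -0.69 with a library left out, but its call was near the threshold. It was not called when only those groups were fitted (limma adjusted p = 0.074), nor when library G1, G2 or H3, labelled DKO, or WT library A2 or B1 was left out (limma adjusted p up to 0.079). In the livers labelled Trib1-KO the difference was -0.30 ± 0.23 (limma adjusted p = 0.4).

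Plin4 (ENSMUSG00000002831.14, GRCm38 chromosome 17, 56100591 to 56109803, - strand) lies 1797 bases from Plin5 on the same strand. Its values spread widely, with a lowest, median and highest value of 898, 1290 and 2412 normalized counts in livers labelled Trib1-KO, 490, 540 and 960 in Cebpa-KO, 72.4, 425 and 1391 in those labelled DKO and 204, 798 and 1909 in WT libraries. None of its differences from WT was called, at 0.96 ± 0.51 in the livers labelled Trib1-KO (limma adjusted p = 0.2), -0.17 ± 0.51 in Cebpa-KO (limma adjusted p = 0.9) and -0.86 ± 0.51 in livers labelled DKO (limma adjusted p = 0.41). Without WT library A2, the top one, the value in Cebpa-KO livers turned to 0.11. Within each group the livers that were high in Plin4 tended to be high in Plin5, with a Pearson r on the log2 scale of 0.78 in the livers labelled Trib1-KO, 0.75 in Cebpa-KO, 0.79 in those labelled DKO and 0.78 in WT (n = 6 each, exact 2-sided permutation p of 0.068 to 0.097). Spearman's rho was 0.89 in the livers labelled Trib1-KO, 0.83 in Cebpa-KO, 0.77 in those labelled DKO and 0.77 in WT livers (exact permutation p of 0.033 to 0.1). Of 16 such relations computed none passed adjustment (adjusted p = 0.19 for each r of this pair and 0.27 for each rho). Without the 2 livers farthest from the median of Plin4, a step that also narrows its range and leaves 4 livers, r was 0.76 in the livers labelled Trib1-KO, 0.15 in Cebpa-KO, 0.33 in those labelled DKO and 0.24 in WT livers.

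CIDE proteins govern droplet fusion. Cidec is the CIDE protein of white fat and fatty liver, Cideb that of hepatocytes, where it also loads lipid onto VLDL, and Cidea that of brown fat. Cidec (ENSMUSG00000030278.11, GRCm38 chromosome 6, 113424634 to 113435760, - strand) had the largest difference of the 10 genes. The libraries labelled Trib1-KO held 1814, 2116 and 2882 normalized counts as lowest, median and highest value. Cebpa-KO libraries held 39.3, 96.8 and 212, libraries labelled DKO 13.2, 87.8 and 130, and WT libraries 74.2, 192 and 395. No other liver came near the 6 livers labelled Trib1-KO, and the next highest of all was WT library B1 at 395. Means were 2211 ± 393 in the livers labelled Trib1-KO and 203 ± 123 in WT (SD, n = 6 each), a rise of 3.67 ± 0.47 (limma adjusted p = 1.6e-06) that lay between 3.43 and 3.92 under all alternatives and left-out libraries.
Against WT, Cidec stood at -0.87 ± 0.47 in Cebpa-KO livers (limma adjusted p = 0.28) and at -1.42 ± 0.47 in livers labelled DKO (limma adjusted p = 0.074). The value in livers labelled DKO was called when library G1, labelled DKO, or WT library B2 or B3 was left out, with limma adjusted p down to 0.04. Cidec has 2 RefSeq starts, 996 bases apart, shown because they differ in the motif. The first (chr6:113435711-113436010, - strand) held neither TTNNGCAA nor AGGTCA, and the second (chr6:113434715-113435014, - strand) held a C/EBP core on its reverse strand at base -198, in capitals.
Cidec start 1: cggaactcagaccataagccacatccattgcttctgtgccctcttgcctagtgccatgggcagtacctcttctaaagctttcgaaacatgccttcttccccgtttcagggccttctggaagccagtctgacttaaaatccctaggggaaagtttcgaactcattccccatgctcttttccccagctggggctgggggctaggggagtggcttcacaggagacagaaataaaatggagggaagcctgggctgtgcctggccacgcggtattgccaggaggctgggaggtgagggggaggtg
Cidec start 2: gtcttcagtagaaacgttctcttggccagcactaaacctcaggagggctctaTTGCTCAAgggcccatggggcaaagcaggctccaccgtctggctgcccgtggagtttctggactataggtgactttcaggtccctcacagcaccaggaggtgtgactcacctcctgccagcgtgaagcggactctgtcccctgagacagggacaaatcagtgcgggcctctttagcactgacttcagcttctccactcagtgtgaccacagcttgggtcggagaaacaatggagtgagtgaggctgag

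Cideb (ENSMUSG00000022219.10, GRCm38 chromosome 14, 55754050 to 55758458, - strand) varied little between livers. Its lowest, median and highest values were 3226, 3429 and 3729 normalized counts in livers labelled Trib1-KO, 3789, 4556 and 4616 in Cebpa-KO, 3836, 4234 and 4363 in those labelled DKO and 4000, 4351 and 4786 in WT libraries. All 6 livers labelled Trib1-KO lay below the other 18. Cideb fell by 0.32 against WT (SE 0.06, limma adjusted p = 0.00025). Scaling to totals without the Mup genes moved the median of all genes to 0.245 in this comparison and Cideb to -0.07, which was not called (limma adjusted p = 0.45). Relative to the median of all genes, Cideb stood at -0.33 with the authors' scaling and at -0.32 without the Mup genes. A factor per library shifts all genes nearly alike, so these values could hardly differ. With quantile normalization, which is no such factor, Cideb stood at -0.16 relative to the median of all genes. Its differences from WT in Cebpa-KO livers, 0.02 ± 0.06, and in livers labelled DKO, -0.06 ± 0.06, were not called (limma adjusted p of 0.91 and 0.66 in that order).

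Cidea (ENSMUSG00000024526.9, GRCm38 chromosome 18, 67343604 to 67367785, + strand) was close to the limit of detection. The libraries labelled Trib1-KO held 4.38, 25.3 and 55.8 normalized counts as lowest, median and highest value. Cebpa-KO libraries held 5.61, 11.1 and 32, libraries labelled DKO 0, 4.91 and 44.1 with 2 at 0, and WT libraries 0, 2.44 and 64.8 with 2 at 0. A single WT liver, A1 at 64.8, was the highest of all 24, with the other 5 WT livers at 0 to 3.78. The difference in the livers labelled Trib1-KO was 2.41 ± 0.92 and was not called (limma adjusted p = 0.06), but it was 3.23 and called without WT library A1 (limma adjusted p = 0.0049). It was also called without library D2, labelled Trib1-KO, with the replicate block and with the scaling that leaves out the Mup genes (lowest limma adjusted p = 0.029 over the other alternatives). That scaling moved the median of all genes to 0.245, relative to which Cidea stood at 2.39. In Cebpa-KO livers it stood at 1.82 ± 0.92 (limma adjusted p = 0.25), and was called without WT library A1 (limma adjusted p = 0.04). The livers labelled DKO stood at 0.35 ± 0.92 (limma adjusted p = 0.9).

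Per kb of transcript the makeup of the CIDE family differed between the groups. Cidec made up 30.5 ± 2.72% of the summed CIDE level per kb in the livers labelled Trib1-KO, 1.63 ± 0.866% in Cebpa-KO, 1.28 ± 0.678% in those labelled DKO and 3.08 ± 1.68% in WT livers (SD, n = 6 each). Cideb made up 68.9 ± 2.67% in the livers labelled Trib1-KO, 98 ± 0.988% in Cebpa-KO, 98.5 ± 1.01% in those labelled DKO and 96.7 ± 1.91% in WT livers. Cidea was at most 1.39% of the sum in every library. In the livers labelled Trib1-KO, Cidec took 27 to 35% of the sum, against 1.18 to 5.63% in WT livers, without overlap. Perilipins kept closer shares, with Plin2 at 91.5 ± 2.57% of the summed level per kb of Plin2, Plin4 and Plin5 in the livers labelled Trib1-KO and 87.1 ± 6.51% in WT livers. A share needs no scaling between libraries, and these shares are descriptions with no test.

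**Figure D2:**
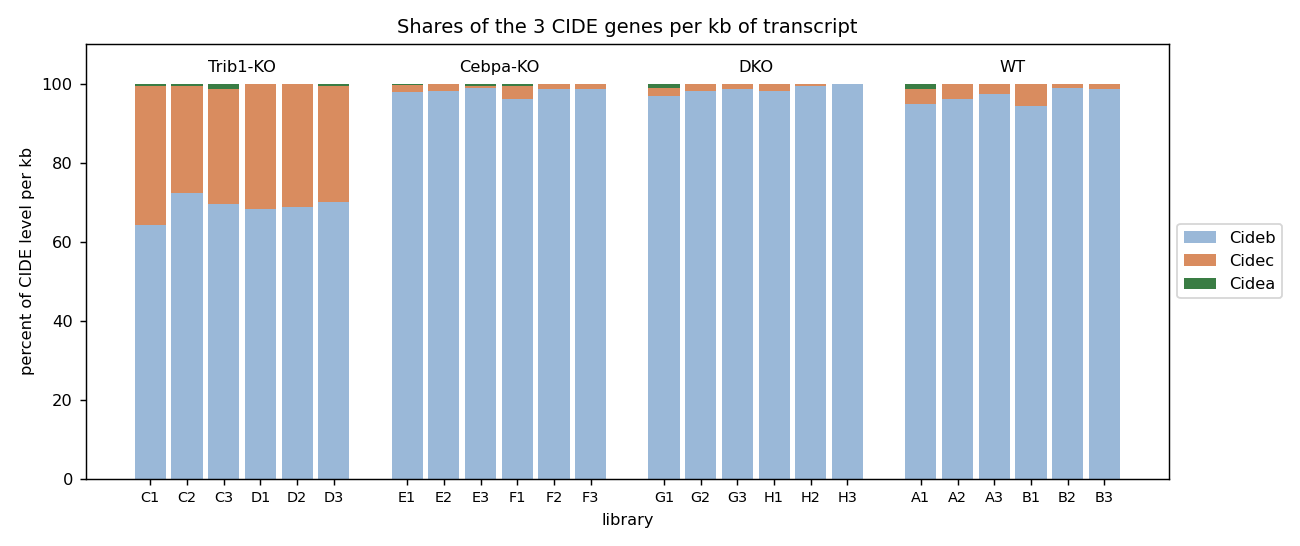
Shares of Cideb, Cidec and Cidea in the summed CIDE level per kb of transcript, in percent, for each of the 24 livers by labelled group. Bars are livers. Cidec takes 27 to 35% in the livers labelled Trib1-KO and at most 5.63% in any other liver.

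Against WT, the groups did not overlap for 4 genes in the higher direction (Cidec, Cd36, Fabp4 and Plin2) and for Cideb in the lower direction in the livers labelled Trib1-KO, where 6.26% and 5.71% of all genes were so separated. In Cebpa-KO livers, 2 of the 10 genes were called and Plin5 alone did not overlap, where 9.82% of all genes were called and 5.17% did not overlap. The median difference of the 10 genes was -0.30. Against WT, 1 gene of the 10 was called in livers labelled DKO and none was without overlap, where 6.09% were called and 3.11% did not overlap, and the median difference was -0.59. The comparisons with WT share the 6 WT livers and are not independent of each other.

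**Figure D3:**
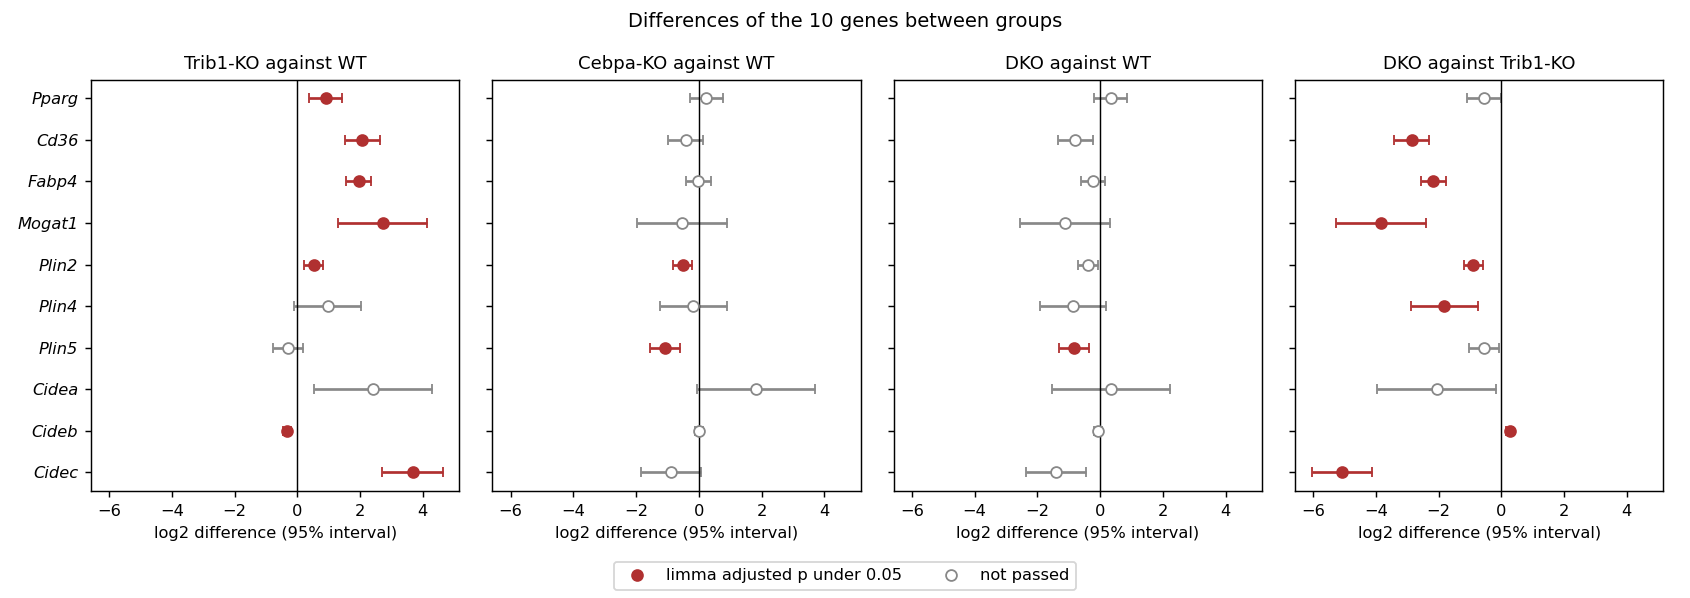
Differences of the 10 genes between groups on the log2(value + 1) scale, with 95% intervals from limma. Filled points passed an adjusted p under 0.05. The 6 rises in the livers labelled Trib1-KO against WT have no counterpart among the calls in Cebpa-KO livers or those labelled DKO, where only Plin2 and Plin5 fell.

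The design asks whether the response to floxed Trib1 differs where Cebpa is floxed as well. Between livers labelled DKO and Cebpa-KO livers, which differ by floxed Trib1, none of the 10 genes was called by limma, and none had an unadjusted p under 0.05, where 0.202% of all genes were called. Trib1 itself was higher in the livers labelled DKO, by 1.13 ± 0.24 (limma adjusted p = 0.046). The 95% interval of the difference ran from -1.51 to 0.41 for Cidec, from -0.94 to 0.19 for Cd36 and from -0.60 to 0.19 for Fabp4. These intervals end below the rises of the livers labelled Trib1-KO against WT. For Mogat1 the interval was -2.02 to 0.83 and for Pparg -0.43 to 0.63, which also end below their rises of 2.71 and 0.90. The rise of Pparg had an interval of 0.37 to 1.43, which overlaps with that of its difference here. None of these intervals shows that livers labelled DKO and Cebpa-KO livers are alike.

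The interaction subtracts the Trib1-KO against WT difference from the DKO against Cebpa-KO difference. It was called in 5 of the 10 genes, all negative, where 12.6% of all genes were called and 6.22% in the negative direction. It was -4.22 ± 0.66 for Cidec (limma adjusted p = 6.7e-05), -2.44 ± 0.39 for Cd36 (limma adjusted p = 8.1e-05) and -2.15 ± 0.27 for Fabp4 (limma adjusted p = 3.7e-06). Mogat1 stood at -3.31 ± 0.98 (limma adjusted p = 0.025). Cidea stood at -3.89 ± 1.30 (limma adjusted p = 0.049), a call lost in 3 of 7 other alternatives and in 18 of 24 that left out a library. The interaction of Pparg, -0.80 ± 0.36, was not called (limma adjusted p = 0.17), nor was that of Plin2 (-0.40 ± 0.21, limma adjusted p = 0.24). That of Plin2 was called with quantile normalization (-0.66, limma adjusted p = 0.048) and without the Mup genes (-0.65, limma adjusted p = 0.039). Without the Mup genes the median of all genes was -0.242, and Plin2 stood at -0.40 relative to it. With quantile normalization Plin2 stood at -0.70 relative to a median of 0.033. The interaction of Cideb, 0.24 ± 0.09, was not called (limma adjusted p = 0.065) and turned to -0.0038 without the Mup genes.

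Set directly against the livers labelled Trib1-KO, those labelled DKO had 6 genes lower and 1 higher, where 30.3% of all genes were called, 15.7% lower and 14.6% higher. Cidec stood at -5.09 ± 0.47 (limma adjusted p = 3.9e-09), Mogat1 at -3.84 ± 0.69 (limma adjusted p = 0.00011), Cd36 at -2.86 ± 0.27 (limma adjusted p = 8.7e-09) and Fabp4 at -2.17 ± 0.19 (limma adjusted p = 2e-09). Plin4 was lower by less, at -1.82 ± 0.51 (limma adjusted p = 0.008), as was Plin2 at -0.90 ± 0.15 (limma adjusted p = 2.9e-05). Cideb rose by 0.26 (SE 0.06, limma adjusted p = 0.0016). The value turned to -0.03 with the scaling without Mup genes, where the median of all genes was -0.294. Relative to the median of all genes in each setting, Cideb stood at 0.28 with the authors' scaling and 0.26 without the Mup genes. With quantile normalization it stood at 0.14. Plin5 stood at -0.54 ± 0.23 and was not called (limma adjusted p = 0.08), but was called without the Mup genes (-0.83, limma adjusted p = 0.0052) and without library D3, labelled Trib1-KO, or H2, labelled DKO. Groups did not overlap for Cidec, Cd36, Fabp4, Mogat1, Plin2 and Cideb, where 16.9% of all genes were so separated, 8.14% higher and 8.74% lower. Between the livers labelled Trib1-KO and Cebpa-KO livers, 32.7% of all genes were called, 16.9% higher and 15.8% lower, and of the 10 genes Cidec, Cd36, Fabp4, Mogat1, Plin2 and Plin5 were higher and Cideb lower. The call of Cideb (-0.34) was lost without the Mup genes (-0.04, limma adjusted p = 0.64), where Pparg (0.96, limma adjusted p = 0.0059) and Plin4 (1.43, limma adjusted p = 0.029) were called. That scaling moved the median of all genes to 0.301. Relative to that median, Pparg stood at 0.66, Plin4 at 1.13 and Cideb at -0.34. With the authors' scaling Pparg stood at 0.66 (limma adjusted p = 0.052) and Plin4 at 1.13 (limma adjusted p = 0.098). Plin5 was the gene called there and not against WT, at 0.79 ± 0.23 (limma adjusted p = 0.01).

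The livers of a group also varied among themselves. Library H3, labelled DKO, was the lowest of its group in 9 of the 10 genes, all but Mogat1, with Cidea at 0 there and in H2. WT library B2 was the lowest in Cidec, Plin4, Plin5, Fabp4 and Cd36, was at 0 in Cidea with B3, and was yet second highest in Plin2 at 17728. Cebpa-KO library F1 was the highest of its group in 6 genes, and in Cd36 it reached 1582. The spread was smallest in Cideb, where the highest and lowest of the livers labelled Trib1-KO were 3729 and 3226. In Cebpa-KO livers Cidec followed Pparg, a gene 1.93 Mb away (Pearson r = 0.91, n = 6, exact permutation p = 0.0083). Adjusted over the 16 relations that p was 0.13. Spearman's rho was 0.94 (exact permutation p = 0.017), and r was 1.00 without the 2 livers farthest from the median. In livers labelled DKO r was also 0.91 (exact permutation p = 0.024, adjusted 0.19), but -0.25 without the 2 farthest livers, and rho was 0.54. It was 0.42 in the livers labelled Trib1-KO (exact permutation p = 0.4) and 0.17 in WT livers (exact permutation p = 0.81). The Cebpa-KO relation was singled out after its values were seen.

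**Figure D4:**
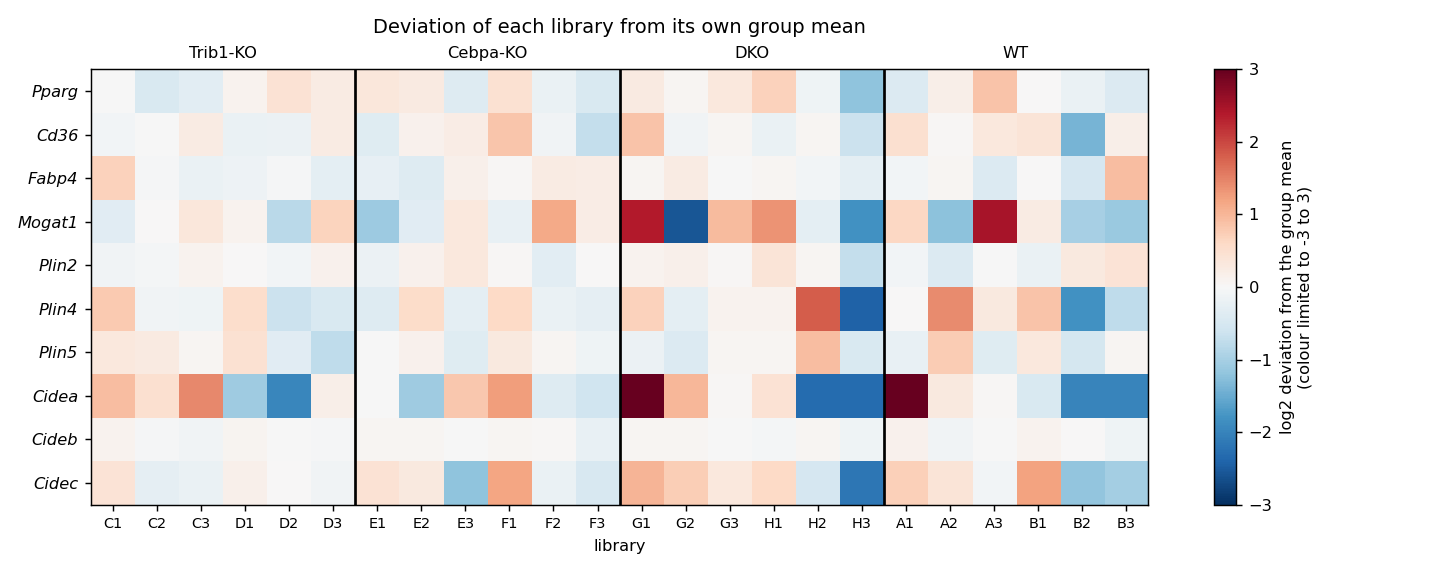
Deviation of each liver from its own group mean on the log2(value + 1) scale for the 10 genes, with libraries named by letter and number and colour limited to -3 to 3. Library H3, labelled DKO, is below its group mean in most genes, and the widest deviations are in Cidea, Mogat1 and Plin4.

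Related gene lists held rises and falls side by side. For comparison, 11.8% of all genes rose and 10.9% fell against WT in the livers labelled Trib1-KO. In Cebpa-KO livers 4.6% rose and 5.22% fell, and in livers labelled DKO 2.84% rose and 3.25% fell. No list was tested against these shares. In the livers labelled Trib1-KO against WT, 7 of 16 other PPARγ target genes tested rose and 2 fell, with a median of 0.10 (8 and 2 with scaling without the Mup genes). Vldlr, a receptor that takes up triglyceride-rich lipoproteins, averaged 461 ± 135 in the livers labelled Trib1-KO and 32.1 ± 16.2 in WT and rose by 3.91 ± 0.36 (limma adjusted p = 1.2e-08). Hilpda, an inhibitor of droplet lipolysis, rose by 1.51 ± 0.16 (limma adjusted p = 1.1e-07), with means of 143 ± 17 in the livers labelled Trib1-KO and 50 ± 8.74 in WT. Lipe, hormone-sensitive lipase, averaged 249 ± 48.1 in the livers labelled Trib1-KO and 476 ± 45.9 in WT, and its fall is given above with the adipocyte genes.
In Cebpa-KO livers 2 of these 16 genes rose and 4 fell. Lpl, lipoprotein lipase, rose by 2.07 ± 0.27 (limma adjusted p = 8.8e-06), Agpat2, an acyltransferase of triglyceride synthesis, fell by 0.73 (limma adjusted p = 1.9e-06), and Acsl1, which activates fatty acids, fell by 0.58 (limma adjusted p = 0.00045). Livers labelled DKO had 2 of them higher and 5 lower, with Lpl at 1.27 ± 0.27 (limma adjusted p = 0.0042), Agpat2 at -0.51 ± 0.09 (limma adjusted p = 0.0004) and Vldlr at -1.66 ± 0.36 (limma adjusted p = 0.0054). Vldlr had an interaction of -4.92 (limma adjusted p = 2.2e-07), and among these 16 genes 5 had a negative and 2 a positive interaction.

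Among 13 PPAR receptors, retinoid X receptors and coregulators, 2 rose and 3 fell in the livers labelled Trib1-KO, with a median of 0.03 (4 and 1 without the Mup genes). Ppargc1b, a coactivator, fell by 1.22 (limma adjusted p = 2.9e-06), and Nrip1, a corepressor, rose by 0.53 ± 0.13 (limma adjusted p = 0.0049). Rxra, the partner of PPARs, fell by 0.31 (limma adjusted p = 0.0065), a call lost with quantile normalization (-0.12, limma adjusted p = 0.41) and without the Mup genes (-0.06, limma adjusted p = 0.67). In Cebpa-KO livers only Ppargc1b was called, at 0.54 ± 0.16 (limma adjusted p = 0.031), and in livers labelled DKO none.
PPARα target genes, which serve fatty acid oxidation, held 10 of 19 that fell and 2 that rose in the livers labelled Trib1-KO, with a median of -0.45. Without the Mup genes 8 fell and 6 rose, with a median of -0.20. Creb3l3, a transcription factor of the fasted liver, averaged 4775 ± 327 there and 7991 ± 510 in WT and fell by 0.74 (limma adjusted p = 3.1e-10). Cyp4a10, a fatty acid hydroxylase, fell by 3.29 (limma adjusted p = 1.5e-07). In Cebpa-KO livers 2 of 19 rose, among them Acadm, an acyl-CoA dehydrogenase of mitochondria, by 0.30 ± 0.09 (limma adjusted p = 0.033, and 0.068 without the Mup genes). Livers labelled DKO had 2 lower, the carnitine palmitoyltransferase gene Cpt1b at -1.51 ± 0.39 (limma adjusted p = 0.019) and the thioesterase gene Acot1 at -1.17 ± 0.32 (limma adjusted p = 0.03).

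Of 23 other droplet proteins and lipases tested, 8 rose and 6 fell in the livers labelled Trib1-KO (9 and 3 without the Mup genes). Abhd5, the coactivator of the lipase ATGL, rose by 1.16 ± 0.11 (limma adjusted p = 7.3e-09), Hsd17b11, a droplet dehydrogenase, fell by 1.14 (limma adjusted p = 3.4e-08), and the rise of Hilpda is given above. Pnpla3, a droplet lipase, had the largest difference of this list, and was singled out after its values were seen. It averaged 157 ± 101 in the livers labelled Trib1-KO, with 15.7 to 316, and 2.39 ± 3.16 in WT (5.55 ± 0.77, limma adjusted p = 5.9e-06). In Cebpa-KO livers 3 of the 23 rose and 4 fell, led by Vps13c, a lipid transfer protein, which fell by 0.78 (limma adjusted p = 3.6e-06). Bscl2, seipin, fell by 0.64 (limma adjusted p = 7.6e-05) and Hsd17b11 rose by 0.59 ± 0.11 (limma adjusted p = 0.00091). Livers labelled DKO had 3 higher and 2 lower, with Vps13c at -0.64 ± 0.10 (limma adjusted p = 0.00011), Hsd17b11 at 0.51 ± 0.11 (limma adjusted p = 0.0065) and Lipe at 0.49 ± 0.11 (limma adjusted p = 0.0076).

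Of 16 other genes for uptake, binding and activation of fatty acids, 4 rose and 6 fell in the livers labelled Trib1-KO, a balance that turned to 6 and 4 without the Mup genes and to 5 and 4 with quantile normalization. Slc27a5, the hepatic bile acid and fatty acid ligase, fell by 1.07 (limma adjusted p = 4.8e-11) and Slc27a2, its close relative, fell by 0.78 (limma adjusted p = 1.2e-08), while Slc27a4, another transporter of the family, rose by 0.88 ± 0.08 (limma adjusted p = 5e-09). In Cebpa-KO livers none rose (3 with quantile normalization) and 2 fell, Acsl1 as above and Fabp5, a fatty acid binding protein close to Fabp4, at -2.50 ± 0.41 (limma adjusted p = 0.00019). Livers labelled DKO had 5 lower, among them Fabp5 at -2.63 ± 0.41 (limma adjusted p = 0.00019), Dbi, the acyl-CoA binding protein, at -0.46 ± 0.08 (limma adjusted p = 0.0011) and Acsl5 at -0.45 ± 0.10 (limma adjusted p = 0.0073).
Of 18 other glycerolipid synthesis genes, 6 rose and 3 fell in the livers labelled Trib1-KO (11 and none without the Mup genes). Gpat3, which starts glycerolipid synthesis, rose by 1.57 ± 0.24 (limma adjusted p = 2.5e-05), Dgat2, which completes triglyceride, rose by 0.58 ± 0.12 (limma adjusted p = 0.00071) and Mttp, which loads lipoproteins, rose by 0.36 ± 0.08 (limma adjusted p = 0.0015). In Cebpa-KO livers 3 fell, Agpat2 as above, Gpat3 at -1.47 ± 0.24 (limma adjusted p = 0.00019) and Mttp at -0.27 ± 0.08 (limma adjusted p = 0.036). In livers labelled DKO Agpat2 fell as above and Gpat3 stood at -0.98 ± 0.24 (limma adjusted p = 0.014). Between livers labelled DKO and Cebpa-KO livers, limma called none of the genes in these 6 lists.

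**Figure D5:**
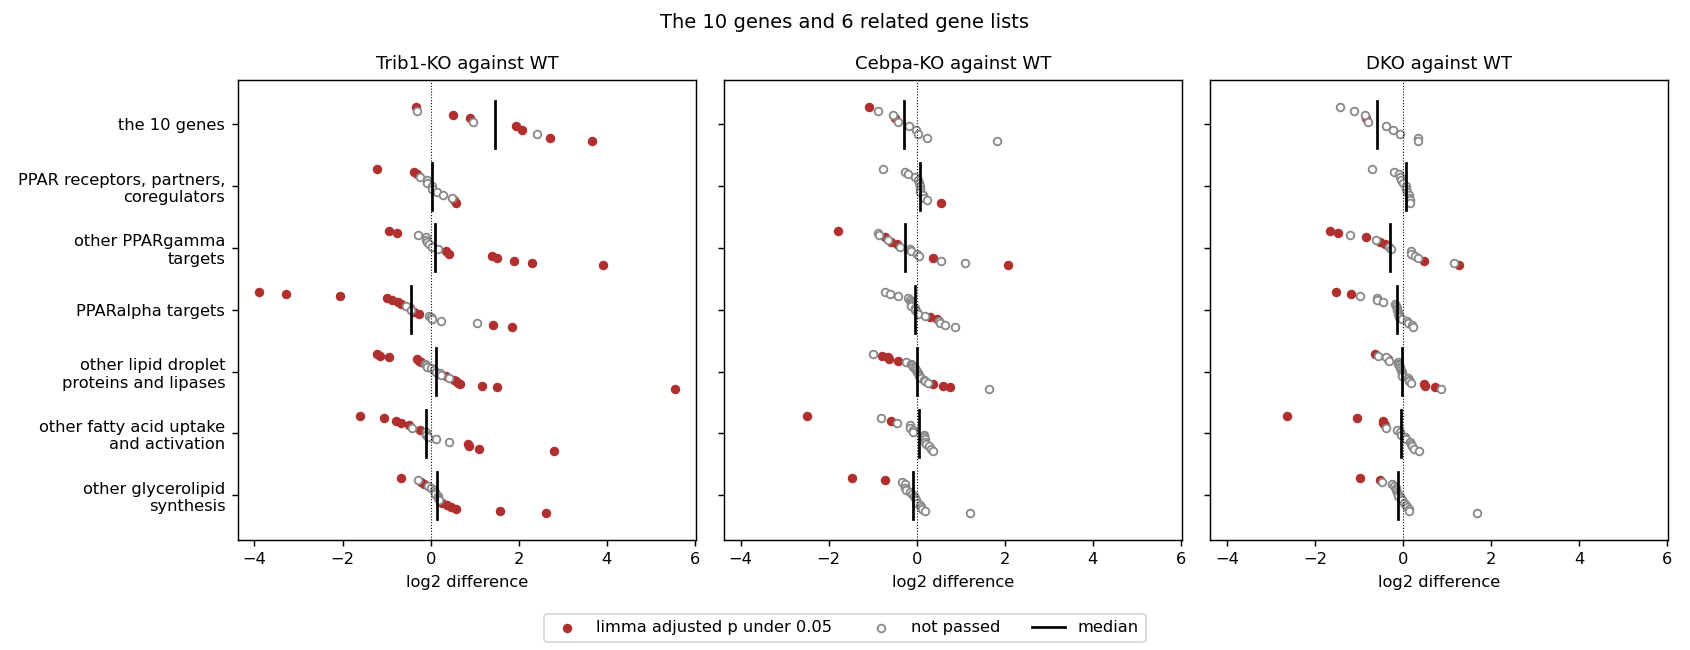
Differences on the log2(value + 1) scale of the 10 genes and of 6 related gene lists, for each of the 3 floxed groups against WT. Points are genes, filled where limma adjusted p was under 0.05, and bars are list medians. The median of the 10 genes is 1.45 in the livers labelled Trib1-KO, against -0.45 to 0.13 for the other lists. The genes and lists were chosen with earlier results of these data known, so this contrast is only a description.

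Genes with the most similar course over the 24 livers were taken by the root mean square difference of centred log2 values. This was done for the 5 genes whose group means spanned at least 2. For Fabp4 they were Coq8b, a kinase-like protein of coenzyme Q synthesis, Nid1, a basement membrane protein, and Anxa5, annexin A5, with differences of 0.27, 0.29 and 0.32. Anxa5 averaged 5277 ± 765 in the livers labelled Trib1-KO, 1450 ± 126 in Cebpa-KO, 1253 ± 96.1 in those labelled DKO and 1721 ± 299 in WT livers. For Cd36 they were Nt5e, Cntrl and Anxa5, at 0.48, 0.53 and 0.53. For Cidec they were Serpina7, thyroxine-binding globulin, Gnai1, a G protein subunit, and Osbpl3, an oxysterol-binding protein, at 0.91, 0.93 and 0.93. Serpina7 averaged 10144 ± 2109 in the livers labelled Trib1-KO, 388 ± 101 in Cebpa-KO, 354 ± 224 in those labelled DKO and 917 ± 529 in WT livers. For Mogat1 they were Clstn3, Olig1 and Atg16l2 at 0.99 to 1.10, and for Cidea Themis, Cxcl9 and Ralgds at 1.30 to 1.39.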

How the data were processed

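Per the submitters' processing notes, Salmon, DESeq2 and the genome build GRCm38.p6 were used; their settings are not given in the sources used here. The authors deposited 1 table, in which the signal per gene and library is an estimated count divided by a factor per library. This reading comes from the values: the median log2 ratio to the mean of all libraries had a spread of 0.0 over 15112 genes above 0 in every library, and 65.1 to 68.7% of low values lay within 0.02 of a whole multiple of a step of 0.687 to 1.46, so whole reads were not recovered. Gene positions came from GENCODE M21, where 54050 identifiers (99.3%) had the same version. The plan for counts was replaced by its written alternative: a trended limma fit (limma 3.58.1, R 4.3.3) on log2(value + 1) for genes that reached a mean of 1, with the 4 group means as coefficients over all 24 libraries and no covariate. The script was tested on simulated data. Levels per kb use the longest coding transcript. The 10 genes and the gene lists were chosen with earlier results of these data known. Named were the 10 genes, Trib1, Cebpa, up to 3 genes per list with the smallest adjusted p, and for genes spanning at least 2 on the log2 scale the 3 genes of most similar course that reached a mean of 10; a gene that this rule names is not reported here. Alternatives were another pseudocount, filter or scaling, only the groups compared, a replicate block and each library left out.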

Additional observations from a re-analysis of the deposited data

Results flagged for a closer look

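Of 40 groups of 6 examined, 10 held a library far from the other 5 for its gap to the nearest, measured on normalized counts. Chance gives about 1 in 20 for values with a normal spread, which low counts do not have. On the log2(value + 1) scale 5 of the 10 stood apart, namely A1 in Cidea, F3 in Cideb, H2 in Plin5, C1 in Fabp4 and B2 in Cd36. Among WT libraries, A1 held 64.8 normalized counts of Cidea, A3 held 366 of Pparg and 70.9 of Mogat1, B3 held 365 of Fabp4, each of them high, and B2 held 446 of Cd36, which was low. Library G1, labelled DKO, was high in Cidea at 44.1 and in Cd36 at 1229, and H2 of that group was high in Plin5 at 1897. Cebpa-KO library F3 was low in Cideb at 3789. Library C1, labelled Trib1-KO, was high in Fabp4 at 1199.

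Called by the interaction test in limma were 5 genes of the set described here, all negative. In these, the difference between groups with and without floxed Trib1 itself differed between livers with floxed and with intact Cebpa. Of all genes, 12.6% were called by that test, and 6.22% in the negative direction. The interaction was -4.22 for Cidec (adjusted p = 6.7e-05), -2.44 for Cd36 (adjusted p = 8.1e-05), -2.15 for Fabp4 (adjusted p = 3.7e-06), -3.31 for Mogat1 (adjusted p = 0.025) and -3.89 for Cidea (adjusted p = 0.049). The call of Cidea was lost in 3 of 7 other alternatives and in 18 of 24 that left out a library.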

How the results depend on the processing

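For the 10 genes, 525 of 550 values under other settings and 903 of 960 with a library left out kept their direction and their side of the threshold. Scaling without Mup genes reversed Cideb in Cebpa-KO against WT (-0.0282), DKO against Trib1-KO (-0.0321) and the interaction (-0.0038); it moved the share of calls that are higher to 84.6%, against 51.8%, in Trib1-KO against WT, and to 18.1%, against 48.3%, in DKO against Trib1-KO. In Cebpa-KO against WT that share was 35.5% against 46.9%, in DKO against WT 35.6% against 46.7%, in Trib1-KO against Cebpa-KO 81.7% against 51.6% and in the interaction 17.2% against 50.5%. Leaving out a library gave ranges that cross 0 for Cideb (-0.0071 to 0.0607), Plin4 (-0.53 to 0.11) and Fabp4 (-0.12 to 0.17) in Cebpa-KO against WT, Cidea in DKO against WT (-0.29 to 1.16) and Pparg in DKO against Cebpa-KO (-0.0384 to 0.338), none of them called. Genes called in DKO against Cebpa-KO, 40, became 25 with no filter, 19 with only the groups compared, 61 with the replicate block and 18 to 63 with a library left out. The cause was not tested. The column numbers did not pair the samples (72 same-numbered pairs of livers correlated at -0.12 to 0.08 over genes). With the numbers as a block Cidec in DKO against WT was called (limma adjusted p = 0.016). The column letters, which divide each group, were not tried as a block. Values near 1 step, as of Cidea and Mogat1, are limited by depth.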
